A study of Mus musculus with 8 samples.

Results

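Down syndrome results from an extra copy of human chromosome 21, whose genes correspond to stretches of 3 mouse chromosomes. The genes described here are a list of mouse orthologues on chromosomes 10 and 17, outside the duplication of the Dp1Tyb strain. Cells of both genotypes carry 2 copies of each gene. The rule that picks them uses symbol and position, and the list was drawn up with earlier results of these data known. The list holds 34 genes, of which 32 had a row among the 19493 endogenous genes counted and 31 were expressed enough to be among the 16470 genes tested. Hsf2bp and Spatc1l had no row and were described only by position and promoter, and Cbs had counts too low for the test.

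RNAseq data came from mouse embryonic fibroblasts (MEFs), cells of connective tissue cultured from E14.5 embryos, with 4 wild-type (WT) libraries and 4 libraries of Dp(16Lipi-Zbtb21)1TybEmcf, here called Dp1Tyb, in which the stretch of chromosome 16 from Lipi to Zbtb21 is present in 3 copies. The labels give C57BL/6J.129P2 as the strain of both genotypes, and by the study's methods the mice had been backcrossed repeatedly to C57BL/6JNimr. Synthetic ERCC transcripts, dosed by cell number before the RNA was isolated, served as an external standard. Both genotypes shared strain, stage, medium and library kit. The labels do not say whether the libraries of a genotype came from separate embryos. The p-values therefore measure only the spread between these libraries, as each test fits it. Libraries held 17698900 to 26471758 counts, spike-ins took 0.882% to 1.65% of them, and the endogenous RNA recovered per spike-in ran from 0.688 to 1.31 times the geometric mean of all libraries. The experiment addressed whether the duplication alters expression across the genome and the amount of mRNA per cell.

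The genes with chromosome 16 orthologues carry the extra dose in Dp1Tyb cells, whereas the orthologues on chromosomes 10 and 17 do not, and a mouse model of that kind therefore copies the human trisomy only in part. Proteins encoded in a duplication can act on genes of other chromosomes, so genes outside it are commonly measured beside those within. The genes on chromosomes 10 and 17 encode enzymes of sulphur amino acid, vitamin B6 and sugar metabolism, splicing and ribosome assembly factors, the SUMO3 modifier, a protease inhibitor, a centrosome scaffold and the calcium-binding protein S100B.

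On chromosome 10 the genes lie between 76207222 and 78464975 (GRCm38), a block of 2.258 Mb that starts with Prmt2, ends with Pdxk and holds 24 of them, 23 with counts. On chromosome 17 the block runs from 31057675 to 32062865, a length of 1.005 Mb from Abcg1 to Rrp1b, and holds 10 of them, 9 with counts. All 34 are annotated as protein-coding.

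To show what kind of promoter these genes have, the upstream sequence of 3 members is printed, each as the 250 bases before the RefSeq start in GRCm38.p6, 5′ to 3′ on the strand of the gene, with every CG dinucleotide in capitals. Sumo3 (chr10:77605847-77606096, plus strand) and Trappc10 (chr10:78244646-78244895, minus strand) were among the steadiest genes from library to library, and S100b (chr10:76253586-76253835, plus strand) had few CG dinucleotides and one of the larger differences between genotypes.
Sumo3: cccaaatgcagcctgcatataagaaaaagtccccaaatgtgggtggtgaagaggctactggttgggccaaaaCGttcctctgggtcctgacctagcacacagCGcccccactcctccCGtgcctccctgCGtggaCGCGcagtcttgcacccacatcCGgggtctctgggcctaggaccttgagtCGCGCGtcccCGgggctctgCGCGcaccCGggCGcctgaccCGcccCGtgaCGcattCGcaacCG
Trappc10: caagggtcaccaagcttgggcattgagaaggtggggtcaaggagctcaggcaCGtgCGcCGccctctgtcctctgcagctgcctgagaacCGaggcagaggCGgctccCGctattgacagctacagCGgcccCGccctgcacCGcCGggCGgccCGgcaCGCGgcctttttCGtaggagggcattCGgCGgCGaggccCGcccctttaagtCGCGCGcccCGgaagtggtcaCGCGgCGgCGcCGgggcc
S100b: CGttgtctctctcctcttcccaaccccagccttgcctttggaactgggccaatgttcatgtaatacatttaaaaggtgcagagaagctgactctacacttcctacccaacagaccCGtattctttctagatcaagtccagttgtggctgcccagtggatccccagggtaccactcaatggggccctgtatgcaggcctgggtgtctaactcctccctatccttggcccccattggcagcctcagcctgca

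The Sumo3 sequence holds 20 CG dinucleotides, that of Trappc10 holds 28 and that of S100b holds 2. The table lists 3 promoters of Sumo3, with 20, 33 and 2 CG dinucleotides in 250 upstream bases, and the one printed starts furthest upstream. Of the 34 genes, 26 matched an entry in the RefSeq promoter table, with 31 promoters among them. Their median was 16 CG dinucleotides in 250 upstream bases, and the median over all 32851 promoters of the table was 6. Adarb1, which encodes an adenosine deaminase that edits RNA, reached 40 and Dip2a, which encodes a protein with acyl-CoA ligase-like domains, reached 37. Motifs were searched for on both strands of the same 250 upstream bases. The letters GGGCGG, the core of a GC box, occurred in 61.3% of the members' promoters (19 of 31) and in 32.7% of all promoters of the same length. TATAAA occurred in 6.45% of the members' promoters, those of Prmt2 and Trpm2, and in 12.4% of all promoters. CCAAT occurred in 29.0% and 33.9%. A match of letters is a description and does not show that a factor binds.

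Expression levels spanned a wide range. Levels between genes are given as RPKM, CPM (counts scaled to library size) set by TMM to the endogenous genes (relative scaling) and divided by exon length in kb. The highest level was 209 RPKM for Cstb and the lowest was 0.0627 for Slc37a1, a ratio of 3338. In all, 10 genes had a mean above 10 RPKM, 15 lay between 1 and 10, and 7 were below 1. The median of the 31 tested genes was 6.85 RPKM, against 3.82 over the 16343 tested genes with a gene model, and 18 of the 31 lay above that value. The order at the top was Cstb, Pttg1ip, Rrp1, Sumo3 and U2af1. Of the 31 pairs of neighbours in the order of levels, 28 had overlapping ranges over the 8 libraries. The 3 pairs that lay apart were Cstb and Pttg1ip, Rrp1 and Sumo3, and Pde9a and Cbs.

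**Figure D1:**
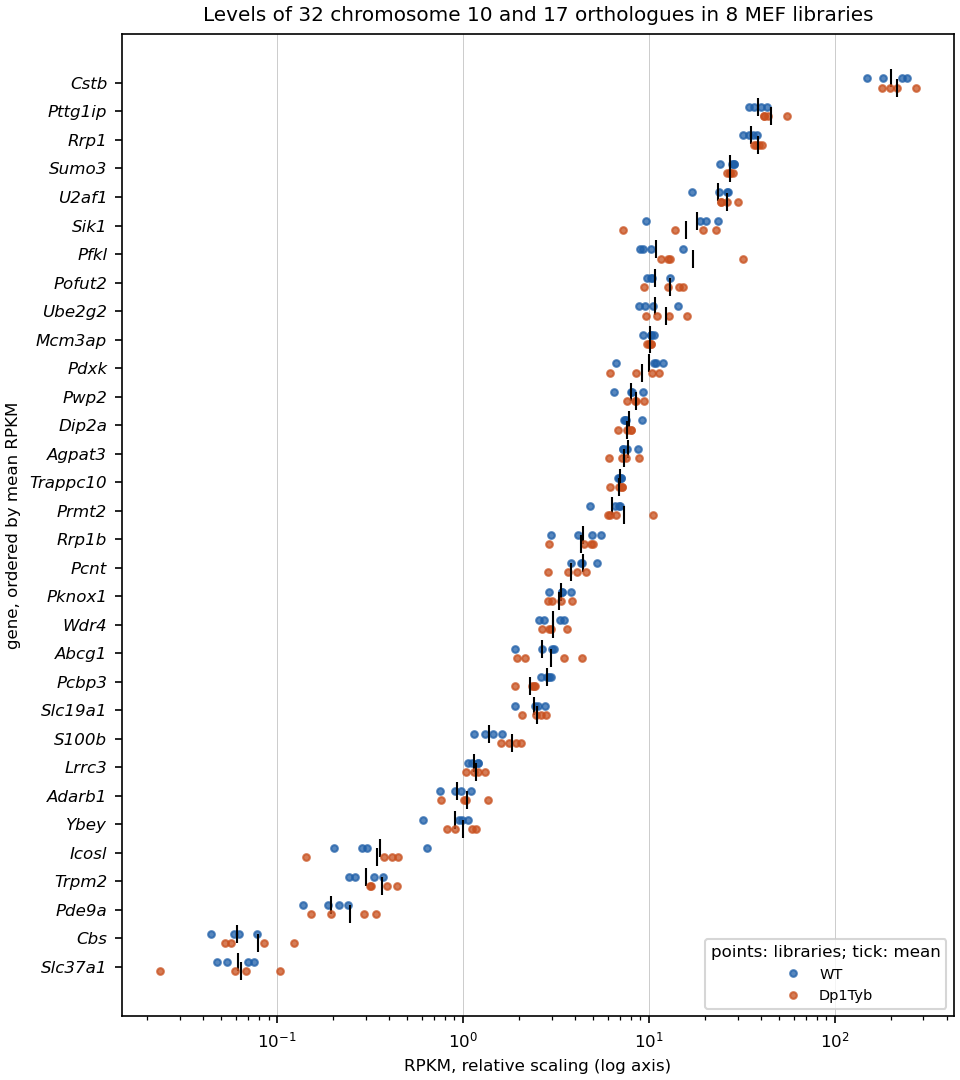
Levels of the 32 genes with counts, in RPKM with relative scaling on a log axis, ordered by mean; points are the 4 WT and 4 Dp1Tyb libraries and ticks are genotype means. Cstb lies apart at 209 RPKM, 7 genes lie below 1 RPKM, and WT and Dp1Tyb points of a gene lie close together compared with the distance between the highest and lowest genes.

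When Dp1Tyb was compared with WT, no tested gene of the 31 was called at an adjusted p under 0.05 in edgeR, with relative scaling or with scaling to the spike-ins. Over all genes tested, 0.0182% were called with relative scaling and 0.0121% with spike-in scaling. With relative scaling 0 of the 31 had an unadjusted p under 0.05 in edgeR, 2 did in DESeq2 and 1 in limma-voom, and the share over all genes in edgeR was 4.27%. With spike-in scaling 1 gene, Pfkl, had an unadjusted p under 0.05 in edgeR, 0 did in DESeq2 and 1 did in limma-voom, and the share over all genes in edgeR was 1.17%. The shares of all genes with such a p in DESeq2 or limma-voom were not counted. Their counts are therefore no result about the members. DESeq2 and limma-voom also called 0 of the 31 after adjustment. Over all genes tested they called 53 and 5 with relative scaling, and 2 and 7 with spike-in scaling. A count of 0 in edgeR says little here. The same edgeR test called 1 of the 112 tested genes of the duplicated region with relative scaling and 0 with spike-in scaling. These genes are present in 3 copies, and 60 and 49 of them had an unadjusted p under 0.05 in edgeR.

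A missed threshold does not show that levels were equal, and the intervals say how large a difference the data still allow. With relative scaling the fold changes of Dp1Tyb over WT ran from 0.805 for Pcbp3 to 1.58 for Pfkl, all 31 of the 95% intervals included no change, and the median interval extended 0.35 to either side on the log2 scale. The log2 fold change was within 0.1 of 0 for 13 genes, between 0.1 and 0.3 in size for 14 and at least 0.3 for 4, which were Pfkl, S100b, Pde9a and Pcbp3. The upper bound lay below 1.5-fold, the ratio of 3 to 2 copies, for 18 of the 31 genes and below 1.25-fold for 8. With spike-in scaling most intervals were wider, though those of Pfkl, Sik1 and Icosl were narrower. The median interval extended 0.63 to either side, and the upper bound lay below 1.5-fold for 2 genes. Most of these small values moved with single libraries. When each library in turn was left out, the log2 fold change with relative scaling changed sign or came below 0.5 times its value for 25 of the 31 genes, the exceptions being Rrp1, Pcbp3, Pofut2, Pttg1ip, Trpm2 and S100b. It moved by more than its SE for 3 genes, Pfkl, Icosl and Prmt2.

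The same edgeR fit was then used to test each gene against a fold change of 1.5. With relative scaling 18 of the 31 genes (58.1%) departed from it on the low side at an adjusted p under 0.05, where 64.8% of all genes tested did so, a share close to that background. The adjusted p in edgeR ran from 0.00230 to 0.0396 among these 18. They were Sumo3, Mcm3ap, Trappc10, Dip2a, Pcbp3, Agpat3, Pcnt, Rrp1, Pknox1, Wdr4, Pwp2, Lrrc3, Slc19a1, Pdxk, Pttg1ip, U2af1, Rrp1b and Cstb. The 13 genes that did not depart ran in fold change from Sik1 at 0.879 to Pfkl at 1.58. With spike-in scaling 0 of the 31 departed after adjustment, against 0.0850% of all genes tested, and the smallest adjusted p in edgeR was 0.369.

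**Figure D2:**
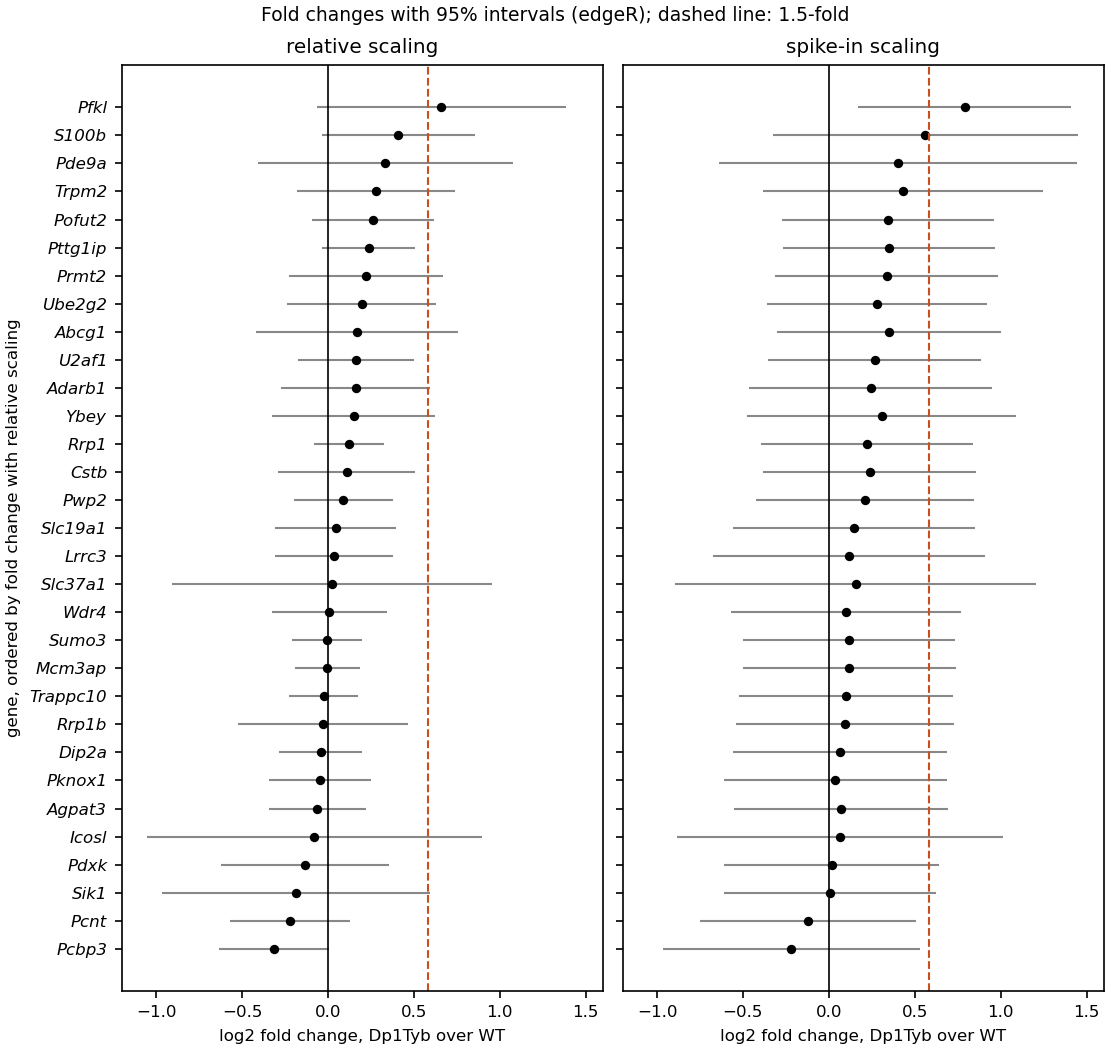
The log2 fold change of Dp1Tyb over WT for the 31 tested genes with 95% intervals from edgeR, with relative scaling on the left and spike-in scaling on the right; the dashed line marks 1.5-fold. All 31 intervals include 0 on the left and 30 do on the right, where the exception is Pfkl. Most intervals are wider on the right, but those of Pfkl, Sik1 and Icosl are narrower. That of Pfkl runs from -0.07 to 1.39 on the left and from 0.17 to 1.41 on the right.

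The median log2 fold change of the 31 genes was 0.04 with relative scaling, and 19 were positive and 12 negative. Over all 16470 genes tested the median was 0.01, and 8430 (51.2%) were positive. Over the 112 tested genes of the duplicated region the median was 0.54, where 101 were positive and 11 negative. With spike-in scaling the 3 medians were 0.16, 0.11 and 0.65, and 29 of the 31 genes were positive against 11597 of the 16470. The scaling thus moved the median of all genes by about as much as that of the 31. The chromosome 10 genes had a median of 0.09 and the chromosome 17 genes one of 0.02 with relative scaling. The cumulative plot sets these distributions side by side.

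**Figure D3:**
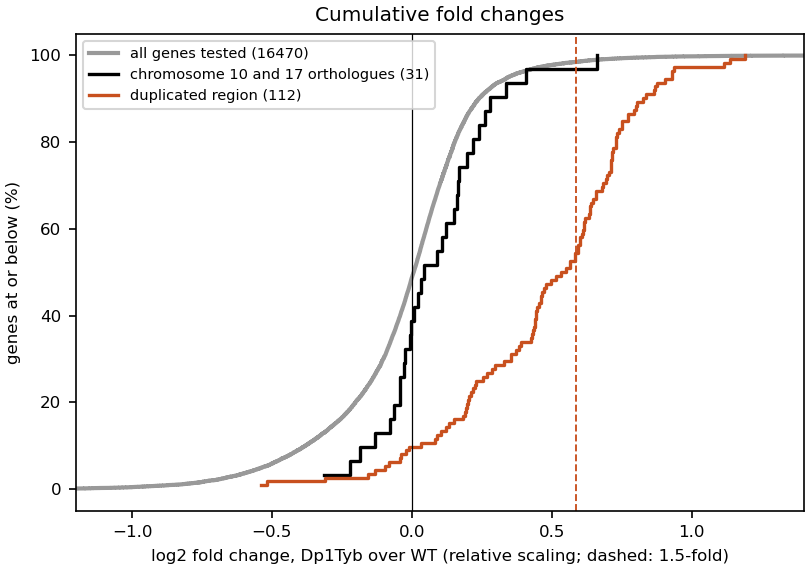
Cumulative share of genes (%) at or below each log2 fold change of Dp1Tyb over WT with relative scaling, for all 16470 genes tested, the 31 chromosome 10 and 17 orthologues and the 112 genes of the duplicated region; the dashed line marks 1.5-fold and the axis is clipped at both ends. The orthologues rise near 0, with 30 of 31 below 1.5-fold, and the duplicated genes rise around their median of 0.54.

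Library by library, the median deviation of the 31 genes from their means over all libraries (log2 CPM, relative scaling) was -0.11, 0.02, 0.00 and 0.05 for WT replicates 1 to 4. For Dp1Tyb replicates 1 to 4 it was -0.01, 0.02, 0.02 and 0.03. WT replicate 1 was the lowest, and the genotypes overlapped. The duplicated genes, treated in the same way, gave -0.29 to -0.23 in WT and 0.23 to 0.28 in Dp1Tyb. Together the counted members made up 0.137% to 0.157% of the endogenous counts of a library. Dp1Tyb replicate 1 held the highest value of 9 of the 31 genes and the lowest of 9 others, and WT replicate 1 held the lowest of 8. With spike-in scaling Dp1Tyb replicate 4 was highest for 18 genes, WT replicate 3 lowest for 14 and Dp1Tyb replicate 2 lowest for 11. These libraries had the most (1.31) and the least endogenous RNA per spike-in (0.713 and 0.688). Going from relative to spike-in scaling multiplies every gene of a library by that factor, so this pattern follows from the scaling.

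**Figure D4:**
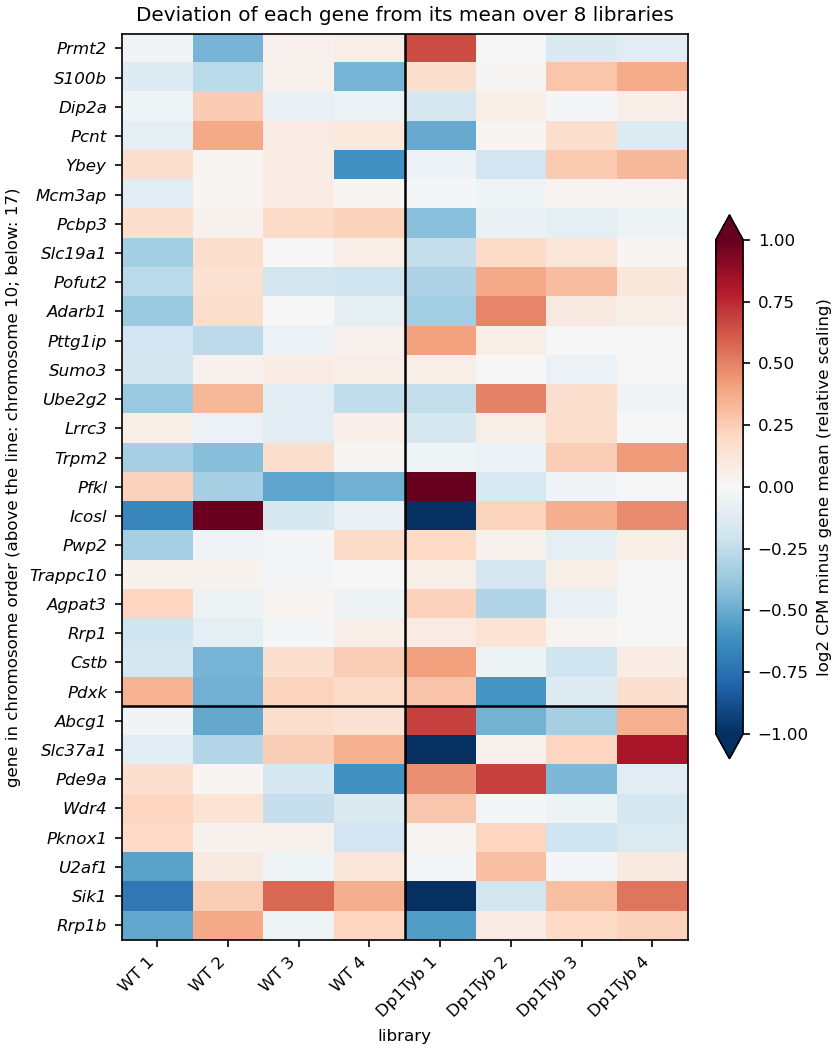
Deviation of the log2 CPM of each tested gene from its mean over the 8 libraries, with relative scaling, for the 31 genes in chromosome order (colours stop at 1.00 in either direction). Columns show no shift shared by most genes of a genotype; Pfkl in Dp1Tyb replicate 1 and Icosl, Sik1 and Slc37a1 in single libraries stand out.

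Among the genes of one-carbon and cofactor metabolism, neither tested member was called. Slc19a1 encodes the reduced folate carrier of the plasma membrane. Its level with relative scaling was 8.89, 12.8, 11.3 and 11.8 CPM in WT replicates 1 to 4 and 9.59, 12.9, 12.3 and 11.4 CPM in Dp1Tyb replicates 1 to 4. Replicate 1 was the lowest of each genotype and the groups overlapped. The means were 11.2 ± 1.65 and 11.6 ± 1.44 CPM (SD, n = 4 per genotype, as for all means below). This gave a log2 fold change of 0.04 (SE 0.16), with a 95% interval of 0.809 to 1.31-fold. Pdxk, which encodes pyridoxal kinase of vitamin B6 metabolism, had 54.1 ± 12.4 CPM in WT and 49.3 ± 12.4 CPM in Dp1Tyb, a log2 fold change of -0.13 (SE 0.22).

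Cbs encodes cystathionine beta-synthase, the enzyme that joins homocysteine and serine on the way to cysteine, and is well known for its high level in liver. It was nearly silent in these cells, with 13, 11, 7 and 9 raw counts in WT replicates 1 to 4 and 11, 16, 8 and 11 raw counts in Dp1Tyb replicates 1 to 4. Every library held some reads, and the counts of the genotypes overlapped. The means were 0.454 ± 0.103 CPM in WT and 0.594 ± 0.244 CPM in Dp1Tyb. This difference of 0.140 CPM was smaller than the spread between the Dp1Tyb libraries (two-sided exact permutation test, p = 0.371 with relative and 0.314 with spike-in scaling, where the smallest possible p is 0.0286). Of 16 further genes of folate, methionine and vitamin B6 metabolism, 15 were tested and 0 were called, with a median log2 fold change of 0.05. Among those with the smaller p values were Shmt2, the mitochondrial serine hydroxymethyltransferase, at 0.44 (SE 0.31) and Slc46a1, the proton-coupled folate transporter, at 0.18 (SE 0.14).

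In the group of lipid, sugar phosphate and cyclic nucleotide metabolism, Pfkl had the highest fold change of all 31 genes. It encodes the liver type subunit of phosphofructokinase, which catalyses the committed step of glycolysis, and lies at chr10:77986947-78010083 on the minus strand. Its level with relative scaling was 102, 68.8, 60.1 and 62.2 CPM in WT replicates 1 to 4 and 213, 78.0, 84.9 and 86.2 CPM in Dp1Tyb replicates 1 to 4. Dp1Tyb replicate 1 was far above all other libraries, WT replicate 1 lay above the other three Dp1Tyb libraries, and the groups therefore overlapped. The means were 73.2 ± 19.3 and 116 ± 65.1 CPM. With relative scaling the log2 fold change was 0.66 (SE 0.33), at an unadjusted p of 0.0712 in edgeR. With spike-in scaling it was 0.79 (SE 0.32), at an unadjusted p of 0.0129 in edgeR, which became an adjusted p of 0.9998. With that scaling Sumo3 also had an SE of 0.32. The SD of log2 CPM within genotypes was 0.80 for Pfkl and 0.37 for Sumo3. The p of Pfkl with spike-in scaling thus rests on a spread shared between genes, not on that of Pfkl alone. Without Dp1Tyb replicate 1 the log2 fold changes of Pfkl were 0.18 with relative and 0.21 with spike-in scaling. Without WT replicate 1 they were 0.87 and 1.13.

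The other phosphofructokinase genes were counted in the same libraries. Pfkp, the platelet type, had 44.4, 51.4, 56.7 and 58.0 CPM in WT and 83.8, 54.4, 56.1 and 61.9 CPM in Dp1Tyb replicates 1 to 4, so that Dp1Tyb replicate 1 was again the highest library. Pfkm, the muscle type, had 26.5, 24.4, 21.9 and 19.0 CPM in WT and 24.6, 25.2, 27.3 and 24.6 CPM in Dp1Tyb, with no such library. Both were described with all libraries after their values had been seen. Their log2 fold changes were 0.28 (SE 0.15) and 0.15 (SE 0.12).

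The rarest transcripts of this group had few reads. Pde9a encodes a phosphodiesterase that breaks down cyclic GMP. It had 0.849, 0.764, 0.663 and 0.485 CPM in WT replicates 1 to 4 and 1.04, 1.21, 0.541 and 0.690 CPM in Dp1Tyb replicates 1 to 4, so 2 Dp1Tyb libraries lay above all WT libraries and the groups overlapped. Its log2 fold change was 0.33 (SE 0.33), with a 95% interval of 0.754 to 2.11-fold, and without Dp1Tyb replicate 2 it was 0.15. Slc37a1, which encodes a glucose 6-phosphate transporter of the endoplasmic reticulum, had 14, 13, 17 and 18 raw counts in WT replicates 1 to 4 and 7, 12, 16 and 21 raw counts in Dp1Tyb replicates 1 to 4. The Dp1Tyb libraries held both the lowest and the highest count. Its log2 fold change was 0.02 (SE 0.42), with a 95% interval of 0.533 to 1.94-fold, so that a difference of less than about that size was not detectable at this depth.

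Abcg1, which encodes a cholesterol exporter, had 19.4 ± 3.88 CPM in WT and 21.8 ± 8.32 CPM in Dp1Tyb, with a log2 fold change of 0.17 (SE 0.26), which was -0.07 without Dp1Tyb replicate 1. Agpat3, which encodes an acyltransferase of phospholipid synthesis, had 60.1 ± 5.33 and 57.5 ± 8.72 CPM and a log2 fold change of -0.06 (SE 0.13). Both differences were smaller than the spread between replicates. Among 14 related genes 12 were tested and 0 were called, with a median log2 fold change of 0.10, and 2 had an unadjusted p under 0.05 in edgeR, where 4.27% of all genes tested did. These were Slc37a2, a relative of Slc37a1, at -0.67 (SE 0.26), and the cholesterol exporter Abca1 at -0.42 (SE 0.18), each with an adjusted p of 0.999 in edgeR. Abca1 was at 117 to 210 CPM in the WT libraries and 105 to 114 CPM in the Dp1Tyb libraries, a separation in this direction that 1.52% of all genes tested had and that was absent with spike-in scaling. The third by p was Slc37a4 at 0.42 (SE 0.22).

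The genes of RNA processing, ribosome assembly and mRNA export formed the largest group, with 9 members that were all tested. None was called, 6 had positive and 3 negative log2 fold changes, and the median was 0.09 with relative scaling. U2af1 encodes the small subunit of the factor that recognises the 3′ splice site (chr17:31647081-31658892, minus strand). Its level was 44.1, 68.2, 62.1 and 69.6 CPM in WT replicates 1 to 4 and 63.4, 78.6, 63.1 and 68.1 CPM in Dp1Tyb replicates 1 to 4. WT replicate 1 was the lowest, Dp1Tyb replicate 2 the highest, and the remaining libraries overlapped. Dp1Tyb differed from WT by a log2 fold change of 0.16 (SE 0.15), with a 95% interval of 0.887 to 1.42-fold, and without WT replicate 1 the log2 fold change was 0.04.

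Pcbp3, which encodes a poly(C)-binding RNA protein, was the one member whose groups did not overlap, at chr10:76761857-76961887 on the minus strand. It had 8.36, 7.68, 8.48 and 8.74 CPM in WT replicates 1 to 4 and 5.57, 7.10, 6.94 and 7.19 CPM in Dp1Tyb replicates 1 to 4. Every Dp1Tyb library was below every WT library with relative scaling, a pattern seen in this direction for 1.52% of all genes tested, and Dp1Tyb replicate 1 was the lowest. The means were 8.31 ± 0.452 and 6.70 ± 0.761 CPM. The log2 fold change was -0.31 (SE 0.14), a fold of 0.805 with a 95% interval of 0.644 to 1.01, at an unadjusted p of 0.0553 in edgeR. With spike-in scaling it was -0.22 (SE 0.38) at an unadjusted p of 0.566 in edgeR, and the groups overlapped. No member had every Dp1Tyb library above every WT library, which 1.64% of all genes tested did with relative scaling. With spike-in scaling 0 members were separated in either direction, against 0.285% of all genes higher and 0.140% lower in Dp1Tyb.

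The ribosome assembly factors differed little. Rrp1 had 118 ± 9.11 CPM in WT and 128 ± 5.24 CPM in Dp1Tyb with a log2 fold change of 0.12 (SE 0.09), and its relative Rrp1b had 33.9 ± 8.58 and 33.3 ± 7.56 CPM with -0.03 (SE 0.22). Pwp2, a component of the small subunit processome, had 30.9 ± 4.47 and 32.9 ± 2.76 CPM with 0.09 (SE 0.13). The 95% intervals of Rrp1 and Pwp2 ended at 1.25 and 1.30-fold, below the ratio of copies. Wdr4, which encodes a subunit of the tRNA guanine-7 methyltransferase, had 16.5 ± 2.46 and 16.6 ± 2.26 CPM, a log2 fold change of 0.01 (SE 0.15). Ybey, a mitochondrial endoribonuclease, had 5.15 ± 1.13 and 5.72 ± 0.966 CPM with 0.15 (SE 0.21), which was 0.0077 without WT replicate 4. The RNA-editing enzyme gene Adarb1 had 10.5 ± 1.64 and 11.8 ± 2.78 CPM with 0.16 (SE 0.19), which was 0.0073 without Dp1Tyb replicate 2.

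Mcm3ap, which encodes the mRNA export scaffold GANP, was the steadiest of the 31 genes, with an SD of log2 CPM within genotypes of 0.06 against a median of 0.25 for the members and 0.28 for all genes tested. It had 72.9 ± 4.08 CPM in WT and 72.6 ± 1.73 CPM in Dp1Tyb, a fold of 0.997 with a 95% interval of 0.874 to 1.14. Mcm3ap and Ybey share 188 exonic bases on opposite strands, and Rrp1b shares 54 with Hsf2bp. Larger overlaps on opposite strands were with gene models without counts. They covered 2104 exonic bases of Pdxk, 964 of Slc37a1, 624 of Ybey and 585 of Wdr4. Pcnt shares 379 exonic bases with 1700094J05Rik, which had counts. The strand option of the counting is not given in the sources used here, so the reads of those bases may have been counted to either gene of a pair or to neither. Of 27 further genes of splicing, ribosome assembly, export and editing, 27 were tested, and 21 were positive where 51.2% of all genes tested were. None was called, and the median log2 fold change of the 27 was 0.05. The smallest p values among them belonged to the ribosome assembly genes Bop1 at 0.23 (SE 0.12) and Pes1 at 0.16 (SE 0.13) and to Sem1, a component of the proteasome and of mRNA export complexes, at 0.16 (SE 0.13).

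Of the genes of the ubiquitin and SUMO systems, protease inhibition and the secretory pathway, 6 were tested and none was called. Cstb, the most abundant member, encodes cystatin B, an inhibitor of cysteine proteases whose loss causes a progressive myoclonus epilepsy. It lies at chr10:78425669-78427622 on the plus strand. Its level was 110, 90.0, 139 and 147 CPM in WT replicates 1 to 4 and 165, 120, 108 and 131 CPM in Dp1Tyb replicates 1 to 4. WT replicate 2 was lowest and Dp1Tyb replicate 1 highest, and the other libraries were mixed. The means were 121 ± 26.2 and 131 ± 24.5 CPM, and the log2 fold change was 0.11 (SE 0.18), with a 95% interval of 0.818 to 1.42-fold.

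Pttg1ip, the second most abundant, encodes a membrane glycoprotein that binds the securin PTTG1. Its level was 142, 135, 156 and 167 CPM in WT replicates 1 to 4 and 214, 169, 161 and 162 CPM in Dp1Tyb replicates 1 to 4. Dp1Tyb replicates 1 and 2 lay above all WT libraries, and the other Dp1Tyb libraries lay between WT replicates 3 and 4. The means were 150 ± 14.4 and 177 ± 25.3 CPM. The log2 fold change was 0.24 (SE 0.12) with relative scaling at an unadjusted p of 0.0789 in edgeR, and 0.13 without Dp1Tyb replicate 1.

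Sumo3 encodes a small ubiquitin-like modifier, and 1 of its 3 promoters in the RefSeq table is the first sequence printed above. It had 88.1, 103, 105 and 105 CPM in WT replicates 1 to 4 and 104, 99.5, 95.9 and 99.7 CPM in Dp1Tyb replicates 1 to 4. WT replicate 1 was the lowest and the other libraries lay close together, with the Dp1Tyb libraries inside the WT range. The fold was 0.997, with a 95% interval of 0.866 to 1.15. Gm49325, a gene model without counts on the same strand, spans Sumo3 and Ube2g2 and shares 346 and 166 exonic bases with them, so their counts are uncertain where reads fall in those bases.

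Ube2g2, an E2 enzyme of endoplasmic reticulum-associated degradation, had 26.3 ± 5.93 CPM in WT and 30.2 ± 6.63 CPM in Dp1Tyb, a log2 fold change of 0.20 (SE 0.19), which was 0.05 without Dp1Tyb replicate 2. Pofut2, which adds O-fucose to thrombospondin repeats, had 85.5 ± 11.8 and 102 ± 20.4 CPM with 0.26 (SE 0.16). Trappc10, a subunit of the TRAPPII tethering complex, had 56.8 ± 1.07 and 55.8 ± 3.97 CPM with -0.02 (SE 0.09), an interval of 0.856 to 1.13-fold. Of these 3, Trappc10 had the narrowest interval, and its SD within genotypes, 0.08, was next to that of Mcm3ap. Among 24 related genes tested, 0 were called and the median log2 fold change was 0.08. The smallest p belonged to B3glct, which extends the O-fucose that Pofut2 adds, at 0.23 (SE 0.10), at an unadjusted p of 0.0408 in edgeR and an adjusted p of 0.999. It was at 29.9 to 35.6 CPM in the WT libraries and 36.7 to 40.3 CPM in the Dp1Tyb libraries, groups apart with relative scaling in a direction that 1.64% of all genes tested shared, and overlapping with spike-in scaling. It was followed by Trappc3 at 0.20 and Trappc1 at 0.19.

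In the group of membrane, calcium and signalling genes, S100b had the second highest fold change of the 31. It encodes a calcium-binding protein known for its high level in astrocytes and Schwann cells, and lies at chr10:76253853-76261159 on the plus strand. Its level was 2.14, 1.95, 2.42 and 1.70 CPM in WT replicates 1 to 4 and 2.63, 2.37, 2.85 and 3.05 CPM in Dp1Tyb replicates 1 to 4. Of the Dp1Tyb libraries 3 of 4 lay above all WT libraries, and replicate 2 lay just under WT replicate 3. The means were 2.05 ± 0.303 and 2.72 ± 0.295 CPM. The log2 fold change was 0.41 (SE 0.20), a fold of 1.33 with a 95% interval of 0.975 to 1.81, at an unadjusted p of 0.0684 in edgeR. With spike-in scaling it was 0.56 (SE 0.45). It did not depart from 1.5-fold either, at an adjusted p of 0.422 in edgeR with relative scaling, so the data separate S100b neither from equal levels nor from the ratio of copies.

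Since S100b is a glial marker, 8 other markers of glia and neural crest were summed. They came to 41.7 to 115 CPM in the WT libraries and 44.4 to 74.6 CPM in the Dp1Tyb libraries, which overlapped, and the lowest WT library was replicate 2. S100b overlaps Dip2a by 1731 bases at their ends on opposite strands, with 0 exonic bases shared. In bulk libraries fewer cells of a type and less RNA per cell cannot be told apart.

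Icosl, which encodes the ligand of the T cell costimulator ICOS, and Sik1, which encodes a salt-inducible kinase, were with Slc37a1 the 3 tested genes that varied most within genotypes. Icosl had 0.938, 2.97, 1.33 and 1.41 CPM in WT replicates 1 to 4 and 0.657, 1.73, 1.92 and 2.07 CPM in Dp1Tyb replicates 1 to 4. WT replicate 2 was the highest and Dp1Tyb replicate 1 the lowest, with an SD of log2 CPM within genotypes of 0.73. Its log2 fold change was -0.08 (SE 0.44), and the 95% interval of 0.481 to 1.86-fold was wide. Sik1, shown with all libraries after its values were seen, had 49.4, 96.4, 120 and 104 CPM in WT and 37.4, 71.4, 99.9 and 117 CPM in Dp1Tyb replicates 1 to 4. Replicate 1 was the lowest library of each genotype, the groups overlapped, and the log2 fold change was -0.19 (SE 0.35), or 0.05 without Dp1Tyb replicate 1. With replicate number added to the fit as a block it was -0.23 (SE 0.11), at an unadjusted p of 0.0774 in edgeR. The numbers were not shown to pair the libraries.

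Trpm2, a calcium-permeable channel gated by ADP-ribose, had 3.77 ± 0.743 CPM in WT and 4.58 ± 0.767 CPM in Dp1Tyb, a log2 fold change of 0.28 (SE 0.21). Lrrc3, a leucine-rich repeat membrane protein, had 4.93 ± 0.284 and 5.05 ± 0.486 CPM with 0.03 (SE 0.15). The difference for Trpm2 was close to its SDs and that for Lrrc3 was within them. The 10 markers of macrophages and leukocytes summed to 164 to 208 CPM in WT and 101 to 149 CPM in Dp1Tyb with relative scaling, groups that did not overlap. The 1.52% of single genes tested that lay apart in this direction is no background for a sum over 10 markers. With spike-in scaling the sums were 148 to 247 CPM in WT and 85.0 to 179 CPM in Dp1Tyb, and they overlapped. Their part in the values of Icosl, Trpm2 or Abcg1 was not tested. The 10 fibroblast markers summed to 22272 to 31832 CPM in WT and 26079 to 31666 CPM in Dp1Tyb and were each above 1 CPM in every library. Of 8 skeletal muscle markers Myod1, Myf5 and Pax7 had no row, and the 5 others, led by Ttn and Des, summed to 35.4 to 71.5 CPM in WT and 27.9 to 127 CPM in Dp1Tyb.

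**Figure D5:**
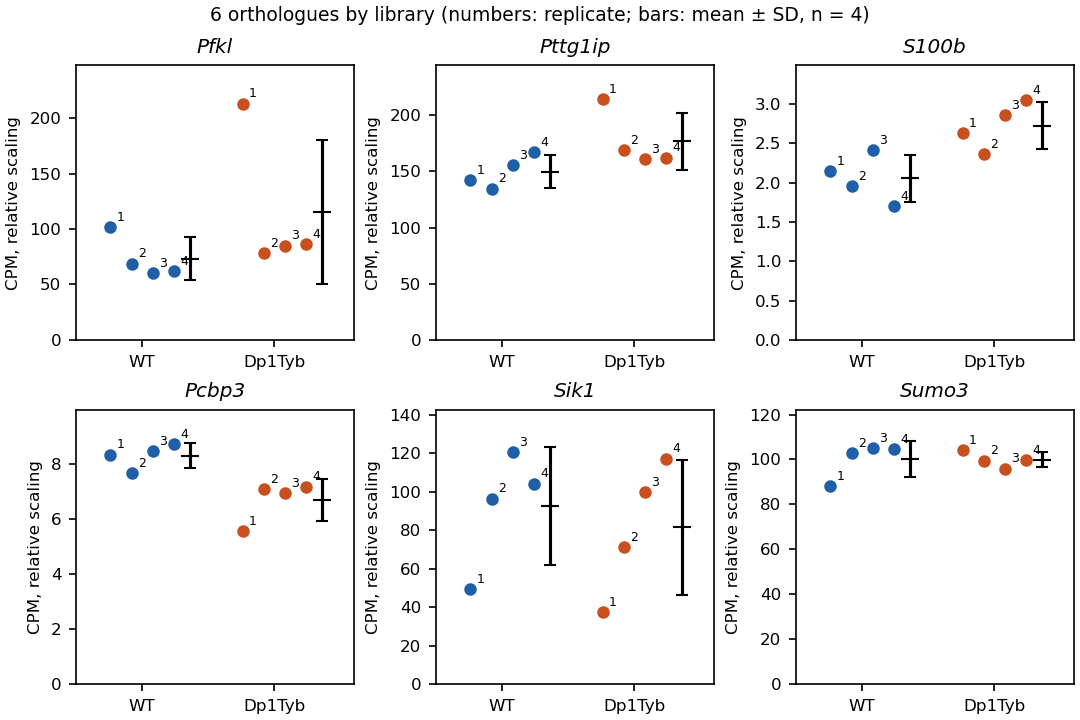
Levels of 6 of the genes in CPM with relative scaling, with the replicate number beside each point and mean ± SD (n = 4) beside each genotype; each vertical axis starts at 0. Dp1Tyb replicate 1 is far from the other Dp1Tyb libraries for Pfkl (213 CPM) and Pttg1ip (214 CPM), the Pcbp3 groups do not overlap, and the Sumo3 libraries lie close together.

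The remaining group holds proteins of the nucleus, transcription and the centrosome, with 4 of 6 members tested and none called. Pcnt encodes pericentrin, a scaffold of the pericentriolar material, and lies at chr10:76351263-76442786 on the minus strand. Its level was 46.1, 64.3, 52.3 and 53.1 CPM in WT replicates 1 to 4 and 34.8, 50.0, 55.5 and 44.9 CPM in Dp1Tyb replicates 1 to 4. Dp1Tyb replicates 1 and 4 lay below all WT libraries, and the groups overlapped. The means were 53.9 ± 7.57 and 46.3 ± 8.80 CPM, and the log2 fold change was -0.22 (SE 0.16), with a 95% interval of 0.672 to 1.10-fold, and -0.11 without Dp1Tyb replicate 1. With spike-in scaling the log2 fold change was -0.12, and Pcnt and Pcbp3 were the 2 members that were negative under both scalings.

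Pknox1, a homeobox transcription factor that pairs with PBX proteins, had 23.4 ± 2.57 CPM in WT and 22.7 ± 3.0 CPM in Dp1Tyb, a log2 fold change of -0.04 (SE 0.13). Dip2a had 64.5 ± 7.39 and 62.7 ± 4.49 CPM with -0.04 (SE 0.11). Prmt2, an arginine methyltransferase, had 21.4 ± 3.42 and 24.9 ± 7.17 CPM with 0.22 (SE 0.20). The differences for Pknox1 and Dip2a were smaller than both SDs, that for Prmt2 was about the SD of WT, and Dp1Tyb replicate 1 was highest for Prmt2 at 35.6 CPM. Without that library the log2 fold change of Prmt2 was -0.0037. Of 30 related genes of signalling and nuclear function 29 were tested and 0 were called. Values were positive for 9 and negative for 20, beside 51.2% positive over all genes tested. The median log2 fold change of the 29 was -0.06. The smallest p values belonged to Dip2c at -0.23, Meis1 at -0.22 and S100a1 at 0.33.

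The other genes of the same blocks share the chromosomal surroundings of the members and are also present in 2 copies. Whether some of them are human chromosome 21 orthologues as well was not examined, so they are compared by place only. Of these other genes, 12 had enough counts for the test. With relative scaling they had a median log2 fold change of 0.06 and a range of -0.64 to 0.40. With that scaling 3 had an unadjusted p under 0.05 in edgeR, where 4.27% of all genes tested did. These were the leukocyte integrin gene Itgb2 at -0.64 (SE 0.25), the collagen gene Col18a1 at -0.55 (SE 0.20) and Fam207a at 0.27 (SE 0.12), none of them called after adjustment. With spike-in scaling 0 of the 12 genes had an unadjusted p under 0.05 in edgeR, beside 1.17% of all genes tested. The groups of Itgb2 overlapped, and the part of leukocytes in its value was not tested.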

How the data were processed

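The authors had made TruSeq stranded mRNA libraries, trimmed reads with Trim Galore, aligned them to GRCm38 with TopHat2 2.0.12 and counted them with HTSeq, and per the labels DESeq2 1.6.3 served for their own comparison. The annotation release and strand option of the counting are not given in the sources used here. The deposited count table, raw whole counts per gene and spike-in with no normalisation, was the source of every value. The authors' normalised signal and their DESeq2 table, which holds mean signal, log2 fold changes with errors, and p-values, were not used here.

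Relative scaling used TMM factors over endogenous genes, and for spike-in scaling the median of ratios was taken over 63 ERCC transcripts. CPM and RPKM are from these libraries and scalings. After filterByExpr, 16470 genes holding 99.9% of endogenous counts were tested by the two-sided quasi-likelihood test of edgeR 4.0.16 (R 4.3.3), with Benjamini-Hochberg adjustment over all of them and a threshold of 0.05. For the test against 1.5-fold, the log of 1.5 was added to the offset of the Dp1Tyb libraries. The procedure was tested on simulated data. Per-library deviations used log2 CPM with a pseudocount of 0.5 counts. Libraries of one genotype differed beyond counting error, with a chi-square per degree of freedom of 8.97 to 81.2. Intervals from counts cover counting and replicate error as edgeR fits them. With spike-in scaling that fit used a spread shared between genes rather than that of each gene alone.

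Positions and exon lengths came from GENCODE M21 (GRCm38), and promoters from RefSeq (GRCm38.p6). Values of all libraries are given for members whose groups did not overlap, with an unadjusted p under 0.05, of highest and lowest level, of largest spread within genotypes or with too few counts to test, and for 6 genes chosen by role. Of the related genes up to 3 per list with the smallest p are named, except 1 that is not reported here. Members, lists and rules were chosen with earlier results of these data known. Alternatives were DESeq2 1.42.0, limma-voom (limma 3.58.1), a minimum of 10 counts in every library or no filter, upper-quartile factors, summed spike-ins, a replicate block and leaving out each library.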

Additional observations from a re-analysis of the deposited data

Results flagged for a closer look

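In 6 of the 64 sets of 4 libraries checked, 1 for each counted member in each genotype, 1 library lay far from the other 3 in CPM with relative scaling, by Dixon's criterion of a gap above 0.829 of the range. Chance marks about 1 in 20 such sets, which is 3.2 here, and genes of a library are not independent. In Dp1Tyb replicate 1, Pfkl was at 213.1 CPM with the other Dp1Tyb libraries at 78.0 to 86.2. The same library had 214.3 CPM of Pttg1ip against 161 to 169, 35.58 CPM of Prmt2 against 20.5 to 22.6, and 5.568 CPM of Pcbp3 against 6.94 to 7.19. WT replicate 1 had 88.07 CPM of Sumo3 where the other WT libraries had 103 to 105. WT replicate 2 had 75.51 CPM of Dip2a where the others had 60.1 to 61.5.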

How the results depend on the processing

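Across the 14 alternatives for each scaling, no member was called in any of the 28 fits. Over the 31 tested members, 42 of 433 log2 fold changes with relative scaling and 38 of 433 with spike-in scaling changed sign, in 17 and 13 genes. Only Prmt2 among these, with relative scaling, had a log2 fold change larger than its SE. For the 12 tested genes that the naming rule gives with values of all libraries, 309 of 334 values kept their direction. Slc37a1 with relative scaling was at -0.15 with limma-voom, -0.039 with the replicate block and -0.023 with upper-quartile factors, and between -0.32 and 0.33 when a library was left out. With spike-in scaling it was at -0.029 with limma-voom and between -0.37 and 0.44 when a library was left out. Slc19a1 with relative scaling was at -3.6e-05 with upper-quartile factors and between -0.047 and 0.13 when a library was left out. Leaving out a library gave ranges of -0.022 to 0.22 for Cstb, -0.28 to 0.38 for Icosl and -0.056 to 0.028 for Sumo3 with relative scaling, and -0.24 to 0.43 for Icosl and -0.26 to 0.018 for Pcnt with spike-in scaling. The median log2 fold change of the members ranged from 0.025 to 0.11 with relative and from 0.07 to 0.31 with spike-in scaling when a library was left out. With relative scaling it was 0.11 without WT replicate 2 and 0.10 without WT replicate 3, WT replicate 4 or Dp1Tyb replicate 1. The median over all genes tested with spike-in scaling was -0.02 without WT replicate 3 and 0.28 without Dp1Tyb replicate 2, beside 0.11 with all libraries. The number of members that departed below 1.5-fold ranged from 14 to 19 of 31 or 32 when a library was left out, 43.8% to 61.3%, beside 47.1% to 62.4% of all genes tested. Upper-quartile factors moved the median of all genes to -0.04 and that of the members to -3.6e-05. The cause of these shifts was not tested.

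The labels do not say whether replicate numbers pair the libraries, and pairing was not shown. Deviations of same-numbered libraries correlated at 0.37, 0.52, 0.03 and 0.33, and those of differently numbered libraries at -0.45 to 0.32. Of the libraries, 2 correlated best with another number. With the replicate block 0 members were called. With relative scaling 3 had an unadjusted p under 0.05 in edgeR, beside 0 without the block. The share of all genes with such a p under the block was not counted, so the 3 are no result about the members. With the block and relative scaling 23 members (74.2%) departed below 1.5-fold, beside 78.4% of all genes tested. Calls over all genes went from 3 to 7 with relative and from 2 to 9 with spike-in scaling. The members with an unadjusted p under 0.05 were Pfkl at 0.56 (SE 0.14), Pcbp3 at -0.32 (SE 0.14) and Pofut2 at 0.25 (SE 0.10). That of Pfkl was 0.0041 in edgeR before adjustment and 0.297 after it. With spike-in scaling Pfkl was at 0.66 (SE 0.24), with an adjusted p of 0.791 in edgeR. Dp1Tyb was the higher library for Pfkl in 4 of 4 same-numbered pairs with relative scaling and in 3 of 4 with spike-in scaling. With relative scaling S100b, Trpm2, Ube2g2 and Adarb1 were also higher in Dp1Tyb in 4 of 4 such pairs. Pcbp3 and Pdxk were lower in Dp1Tyb in 4 of 4. The share of all genes with such pairs was not counted, so these patterns are no result about the members. DESeq2 called 53 genes over the table with relative scaling where edgeR called 3.

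The low counts of Cbs, Slc37a1 and Pde9a limit what can be seen of them, and with spike-in scaling the spread of RNA per spike-in between libraries limits all members.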
